A study of Mus musculus with 6 samples.

Results

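Histone messenger RNAs were examined in sorted CD8 T cells of the mouse lymph node. The genes were all those in the deposited count tables whose symbol begins with Hist1h to Hist4h, H2af or H3f3, which gave 78 of 23284 genes. Of these, 68 are named for the Hist1 to Hist4 clusters and 10 are H2af or H3f3 genes. One of the 68, Hist3h2bb-ps, is named as a pseudogene.

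The cells came from lymph nodes of 3 separate C3H/HeJ mice, an inbred strain, and were sorted for CD3, CD8, CD44 and CXCR3, which together mark T cells that have met antigen. They were divided by NKG2D, an activating receptor encoded by Klrk1, into 3 NKG2D+ and 3 NKG2D- libraries. The sources used here give neither the age of the mice nor whether they had the hair loss disease that this strain models. Klrk1 stood at 409, 312 and 342 CPM (reads scaled to the same library total) in NKG2D+ libraries 1, 2 and 3 and at 34.5, 37.1 and 36.1 CPM in the NKG2D- libraries, so all 6 libraries followed their labels.

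Histones are the proteins around which DNA is wound. H2A, H2B, H3 and H4 form the core of the nucleosome, and H1 binds the linker between cores. Genes of the Hist clusters are mostly replication-dependent: they are transcribed in S phase, and their mRNA normally ends just after a short hairpin that the stem-loop binding protein recognises, without a poly(A) tail. Replacement variants such as those of most H2af and both H3f3 genes are made throughout the cell cycle from ordinary polyadenylated mRNAs and are placed into chromatin outside replication. The libraries were made with a TruSeq RNA Sample Preparation Kit v2, a kit that selects RNA by its poly(A) tail, so an mRNA without a tail is captured poorly and low reads do not measure its amount in the cell.

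The hairpin was present in the annotated transcripts. The next lines show it for 8 genes on which the results turn, read from GENCODE M21 transcripts (GRCm38), 5′ to 3′ on the transcript strand, with the 6-base stem arms and the 4-base loop in capitals and 5 bases on each side.
Hist1h1c: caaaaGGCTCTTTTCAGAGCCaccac
Hist3h2a: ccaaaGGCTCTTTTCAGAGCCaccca
Hist3h2ba: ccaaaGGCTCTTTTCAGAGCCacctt
Hist1h3a: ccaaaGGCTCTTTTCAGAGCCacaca
Hist2h2ac: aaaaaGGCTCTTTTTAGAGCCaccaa
Hist4h4: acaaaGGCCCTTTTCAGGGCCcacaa
Hist1h4i: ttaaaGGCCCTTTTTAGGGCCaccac
H2afx: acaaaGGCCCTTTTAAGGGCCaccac
In the H1, H2A, H2B and H3 examples the stem opens with the same 6 letters, and the H4 examples and H2afx share another stem. A hairpin of this kind was found in 44 of the 68 clustered genes, and in 84.6% of the 52 with an annotated 3′ UTR of at least 16 bases. Among the H2af and H3f3 genes it was found in 1, H2afx, which encodes the H2A.X variant that is phosphorylated at DNA breaks. Searched within 100 bases after the stop codon, it was in 45 of 60 histone genes (75%) and in 1 of 20906 other protein-coding genes (0.00478%).

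Some clustered genes also have a longer annotated transcript with a polyadenylation signal. The signal, in capitals, is printed here for the 4 clustered genes in which it was found with the most reads and for 3 replacement genes, within the last 50 bases of an annotated transcript, with the bases on either side.
Hist1h1c: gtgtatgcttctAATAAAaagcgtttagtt
Hist3h2a: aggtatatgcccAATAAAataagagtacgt
Hist2h2be: gttattattattAATAAAgttaccgattag
Hist4h4: tagaggagatgaAATAAAtac
H2afz: gtggataagctcAATAAAggtcatatccc
H3f3b: ataggccttacaAATAAActagtaagtttg
H2afx: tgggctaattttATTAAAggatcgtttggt
Hist1h1c, Hist3h2a and Hist4h4 thus carried both ends: their longest annotated transcripts ran 840, 1643 and 2445 bases past the hairpin. The same held for H2afx, with 822 bases past it. In Hist2h2be the signal was found and a hairpin of the pattern searched for was not. That pattern fixed some bases of the stem and loop as well as their lengths, so a hairpin with other letters would be missed.

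Promoters of the histone genes were compared with all others for 3 short motifs, searched on both strands from 250 bases before to 50 after each start in RefSeq (GRCm38.p6). Windows were at hand for 68 of the 78 genes, 69 windows in all. CCAAT was in 6 of 6 H1, 17 of 17 H2A, 17 of 17 H2B, 10 of 10 H3 and 3 of 12 H4 windows of the clusters, against 37.4% of 32851 promoters. The octamer ATTTGCAT, a classic element of H2B promoters, was in 7 of 17 H2B and 7 of 17 H2A windows and in 1.74% of all promoters. TATAAA was in 52.2% of the histone windows and 13.6% of all promoters. Of the 7 windows of replacement genes, CCAAT was in 6, the octamer in 1 and TATAAA in 1. None of these motifs contains another, and divergent H2A and H2B neighbours can share a window. These matches describe the letters in the windows only.

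Read depth was 41168816 to 89184611 gene counts per library, so 1 read was worth 0.0112 to 0.0252 CPM. Detected genes, with at least 1 read in at least 1 library, numbered 65 of 78 (56 clustered, 9 replacement). In single libraries 47 to 59 were detected. NKG2D+ libraries 1, 2 and 3 had 59, 59 and 53, and NKG2D- libraries 1, 2 and 3 had 47, 50 and 55. The shallowest library, NKG2D- 1, had the fewest, and the deepest, NKG2D+ 2, shared the most with NKG2D+ 1. The remaining 13 were at 0 in all 6 libraries: H2afb1 and 12 clustered genes, among them Hist1h3b, Hist1h2ap and both Hist2h2aa copies. A count of 0 allows up to 3 reads, which is 0.0335 to 0.0756 CPM depending on the library, counting error only.

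Replacement genes held nearly all histone reads. Over the 6 libraries the clustered genes had 10952 reads and the H2af and H3f3 genes 525589. Clustered reads summed to 34.7, 25.1 and 27.1 CPM in NKG2D+ libraries 1, 2 and 3 and to 27.5, 25.9 and 26.5 CPM in the NKG2D- libraries. Library NKG2D+ 1 was the highest of all and NKG2D+ 2 the lowest, so the groups overlapped. The replacement sum was 1381, 1439 and 1214 CPM in NKG2D+ and 1330, 1374 and 1218 CPM in NKG2D- cells, and here library 3 was the lowest of each group. Clustered reads, set as a ratio to the replacement reads of the same library, came to 2.16% ± 0.390 (SD, n = 3) in NKG2D+ and 2.04% ± 0.147 (SD, n = 3) in NKG2D- cells. Divided by the length of each gene's longest coding transcript in GENCODE M21, the sums of the genes' means over all 6 libraries were 23.2 CPM per kb for clustered and 724.6 CPM per kb for replacement genes.

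**Figure D1:**
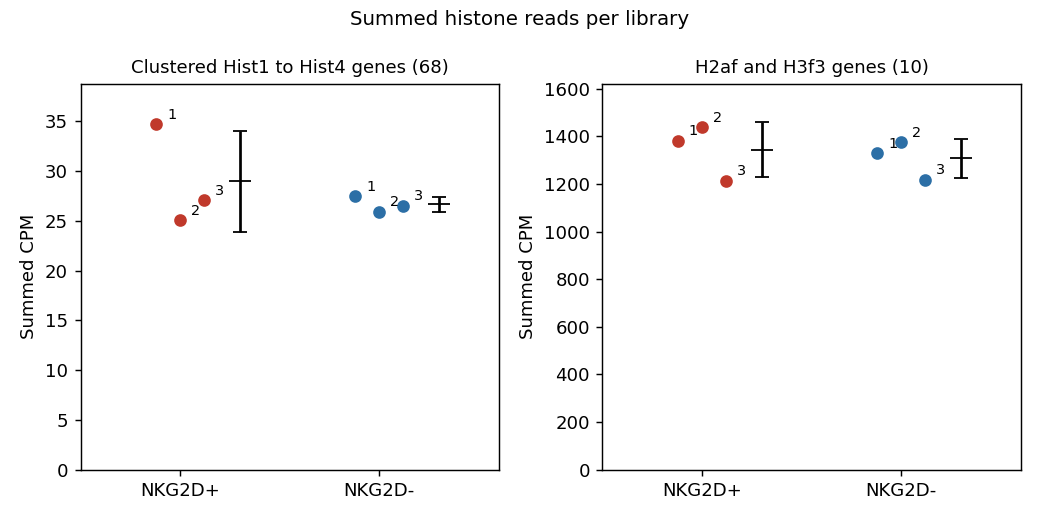
Summed CPM of the clustered Hist genes (left) and of the H2af and H3f3 genes (right) in each library, with the library number beside each point and the group mean with its SD as a bar. The groups overlap in both panels, whose axes differ: the left points lie between 25.1 and 34.7 CPM and the right ones between 1214 and 1439 CPM.

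Between the populations the sums of both classes differed by less than the larger of their SDs. The clustered sum was 29.0 ± 5.08 CPM (SD, n = 3) in NKG2D+ and 26.7 ± 0.786 CPM in NKG2D- cells, a log2 ratio of 0.12 that became -0.03 without library NKG2D+ 1. The replacement sum was 1345 ± 117 against 1307 ± 80.8 CPM, a log2 ratio of 0.04. Without library NKG2D+ 3 the replacement ratio was 0.11 and the groups did not overlap. By type, clustered H1 genes summed to 10.8 and 10.1 CPM, H2A to 6.37 and 5.004, H2B to 6.79 and 6.33, H3 to 1.21 and 0.847, and H4 to 3.79 and 4.41 CPM in NKG2D+ and NKG2D- cells. These sums leaned on single libraries. Without NKG2D+ 1 the log2 ratio of the H2A sum went from 0.35 to 0.00, that of H3 from 0.51 to 0.14 and that of H2B from 0.10 to -0.06, and without NKG2D+ 2 the H3 ratio was 0.78. By cluster, the 54 Hist1 genes summed to 14.3 and 13.2 CPM, the 10 Hist2 genes to 6.65 and 6.5, the 3 Hist3 genes to 6.16 and 4.72, and Hist4h4 to 1.91 and 2.22 CPM.

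None of the histone genes chosen by symbol passed the test between NKG2D+ and NKG2D- cells. Counts were tested with edgeR's quasi-likelihood test and Benjamini-Hochberg adjustment over 12951 genes that passed a filter on low counts, with a threshold of 0.05. Of the 27 histone genes that passed the filter, 20 clustered and 7 replacement, 0 were called, against 261 of all genes (2.02%; 1.65% higher and 0.363% lower in NKG2D+). At that background less than 1 call would be met among 27 genes, so the count of 0 is near the background. One histone gene had an unadjusted p under 0.05, against 21.1% of all genes, and the lowest adjusted p was 0.213. DESeq2, fitted to the 65 detected genes, and limma-voom also called 0, with 1 and 0 at an unadjusted p under 0.05. Genes that DESeq2's own filter on low counts left without an adjusted p could not be called. The log2 fold change was positive in 15 and negative in 12 of the 27 (47.2% of all genes were positive), with a median of 0.05 against -0.01 for all genes. One gene had all NKG2D+ libraries above all NKG2D- libraries, where 15.1% of all genes did, and 0 had them all below, where 14.1% did. The 261 calls themselves depended on single libraries: they numbered 543, 1312 and 15 without NKG2D+ 1, 2 or 3, and 21, 13 and 8 without NKG2D- 1, 2 or 3. With the mouse as a block there were 68. The histone count was 0 in each of these.

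**Figure D2:**
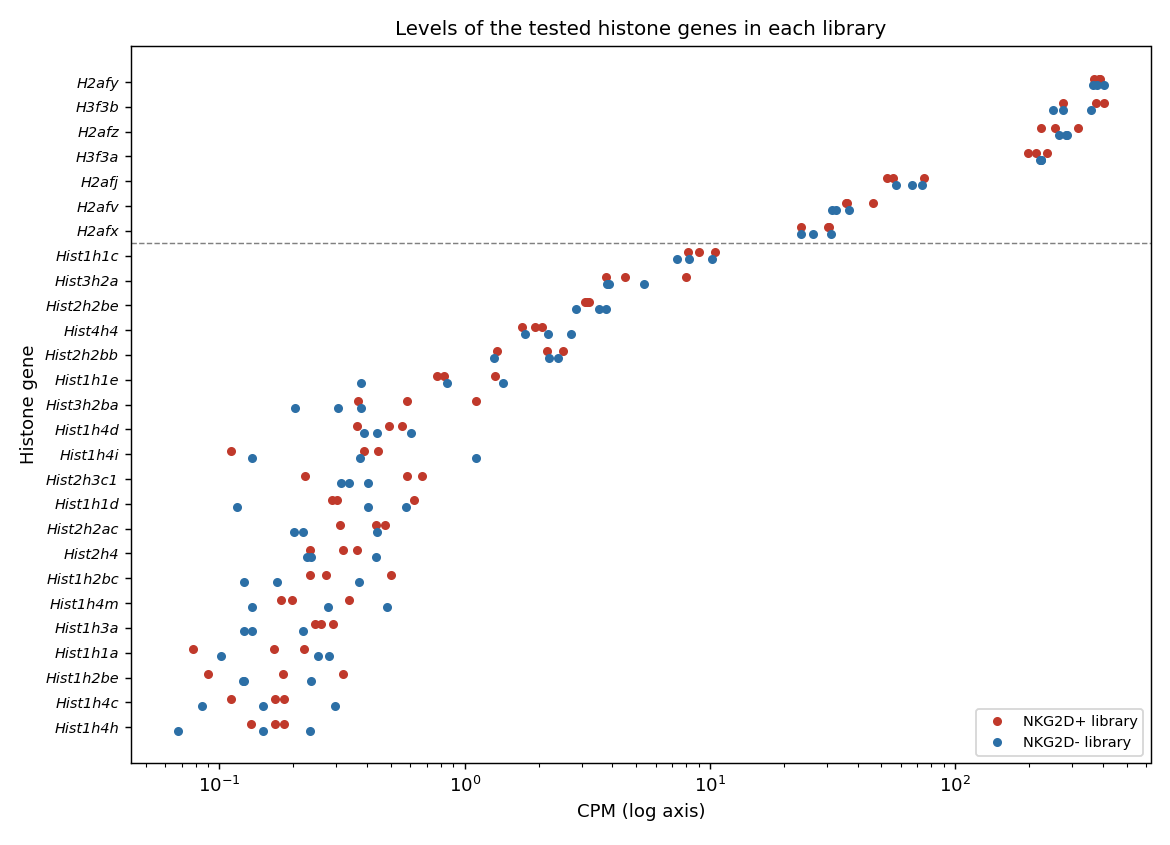
CPM (log axis) of each of the 27 tested histone genes in the 3 NKG2D+ (red) and 3 NKG2D- (blue) libraries, with replacement genes above the dashed line and clustered genes below it, each block sorted by its mean. The ranges of the red and blue points overlap in every row but that of Hist1h3a.

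Replacement H3 is encoded by H3f3a and H3f3b, which give the same H3.3 protein. H3f3b stood at 405, 375 and 275 CPM in NKG2D+ libraries 1, 2 and 3 and at 276, 357 and 252 CPM in the NKG2D- libraries. It was higher in the NKG2D+ library of each mouse, but library NKG2D+ 3 lay below NKG2D- 1 and 2, and the log2 fold change of 0.26 ± 0.18 (SE) did not pass (edgeR adjusted p = 0.473). H3f3a had 236, 215 and 199 CPM in the NKG2D+ libraries and 225, 225 and 222 CPM in the others. The NKG2D- libraries were nearly equal and lay within the NKG2D+ range (log2 fold change -0.05 ± 0.08, edgeR adjusted p = 0.775). H3f3a is overlapped by an annotated antisense gene, H3f3aos, and its reads cannot be told apart from those of that gene where the counting did not use strand.

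H2A.Z, a variant found at promoters, is encoded by H2afz and H2afv. NKG2D+ libraries had 225, 317 and 255 CPM of H2afz and NKG2D- libraries had 283, 287 and 266 CPM, with both the lowest and the highest library in the NKG2D+ group (log2 fold change -0.07 ± 0.13, edgeR adjusted p = 0.805). For H2afv the NKG2D+ libraries had 46.4, 35.8 and 36.4 CPM and the NKG2D- libraries 37.0, 32.6 and 31.4 CPM. H2afv was higher in the NKG2D+ library of each of 3 mice, the groups overlapped by library NKG2D- 1, and the log2 fold change was 0.23 ± 0.12 (edgeR adjusted p = 0.341). Without NKG2D+ 1 it was 0.10.

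H2afy encodes macroH2A, a variant with a large extra domain that is associated with silent chromatin. Its values were 385, 390 and 369 CPM in NKG2D+ and 404, 380 and 365 CPM in NKG2D- libraries, the tightest of the group (log2 fold change -0.01 ± 0.07, edgeR adjusted p = 0.968). Its relative H2afy2 had 28 reads in all 6 libraries together and H2afy3 had 51, so neither was tested. H2afj, which encodes the variant H2A.J, stood at 52.7, 74.6 and 55.8 CPM in NKG2D+ and at 73.4, 66.4 and 57.5 CPM in NKG2D- libraries (log2 fold change -0.11 ± 0.15, edgeR adjusted p = 0.737). H2afx, with both kinds of mRNA end, stood at 30.5, 30.4 and 23.5 CPM against 31.3, 26.4 and 23.6 CPM, with overlapping groups (log2 fold change 0.05 ± 0.15, edgeR adjusted p = 0.869). For all 7 tested replacement genes the 95% interval of the log2 fold change held 0 and lay between -0.47 and 0.68.

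Ranked per kb of longest coding transcript, the mean over libraries was 254 CPM per kb for H2afz, 187 for H2afy, 129 for H3f3b, 77.6 for H3f3a, 34.6 for H2afj, 22.4 for H2afv and 20.0 for H2afx. On this scale Hist1h1c, at 5.71 CPM per kb, was below all of them. Transcript lengths are those of GENCODE M21 and not of the annotation that the authors counted on.

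Among clustered genes, linker histone H1 gave the most reads. Hist1h1c, which encodes a somatic H1 subtype, held 27.7% to 39.2% of the clustered reads in each library. It stood at 10.5, 9.07 and 8.16 CPM in NKG2D+ and at 8.21, 10.2 and 7.36 CPM in NKG2D- libraries, and the groups overlapped (log2 fold change 0.11 ± 0.17, edgeR adjusted p = 0.759). Hist1h1e, another somatic H1 gene, ranged from 0.771 to 1.33 CPM in NKG2D+ and from 0.378 to 1.43 CPM in NKG2D- libraries, so its lowest and highest library were both NKG2D-. In GENCODE M21 Hist1h1e overlaps Hist1h2be and another annotated gene on the same strand, so its reads may be shared with them.

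Of the H2A genes, Hist3h2a stood out by level. It had 7.98, 4.52 and 3.78 CPM in NKG2D+ and 5.36, 3.80 and 3.87 CPM in NKG2D- libraries. The highest value was that of library NKG2D+ 1, without which the log2 fold change of 0.32 ± 0.31 (edgeR adjusted p = 0.606) was -0.06. In GENCODE M21 the gene overlaps Trim17 on the same strand, so its reads may be shared with that gene. Hist2h2ac, at 0.406 ± 0.0843 against 0.286 ± 0.133 CPM (SD, n = 3 each), had a log2 fold change of 0.48 (edgeR adjusted p = 0.543).

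Of the H2B genes, Hist3h2ba was the histone gene with the smallest p, an unadjusted 0.0392 in edgeR. NKG2D+ libraries had 73, 33 and 45 of its reads and NKG2D- libraries 15, 18 and 13, or 1.11, 0.369 and 0.583 CPM against 0.378, 0.304 and 0.203 CPM. It was higher in the NKG2D+ library of each of 3 mice, though NKG2D+ 2 lay just under NKG2D- 1. The log2 fold change was 1.23 ± 0.49 (edgeR adjusted p = 0.213), with a 95% interval from 0.08 to 2.38. Without library NKG2D+ 1 it was 0.71 (adjusted p = 0.419). Hist2h2be stood at 3.15, 3.23 and 3.08 CPM in NKG2D+ and at 2.85, 3.77 and 3.52 CPM in NKG2D- libraries, with the NKG2D+ values inside the NKG2D- range (log2 fold change -0.10 ± 0.17, edgeR adjusted p = 0.789). Hist2h2bb followed the mouse number more than the population, at 2.51, 1.35 and 2.18 CPM in NKG2D+ and 2.39, 1.32 and 2.20 CPM in NKG2D- libraries. It overlaps another annotated gene on the same strand, none of its 50-base stretches is unique to it in GENCODE M21, and its reads are uncertain for that reason. Hist1h2bc, at 0.336 ± 0.145 against 0.223 ± 0.131 CPM, had a log2 fold change of 0.54 (edgeR adjusted p = 0.600).

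Of the H3 genes, Hist1h3a was the one without overlap between the groups, at 0.258, 0.290 and 0.246 CPM in NKG2D+ and 0.126, 0.135 and 0.218 CPM in NKG2D- libraries. Its log2 fold change of 0.70 ± 0.35 did not pass (edgeR adjusted p = 0.317), and it rested on 89 reads in all. Hist2h3c1 stood at 0.492 ± 0.236 against 0.351 ± 0.0469 CPM (SD, n = 3 each), with a log2 fold change of 0.48 (edgeR adjusted p = 0.595), and like Hist2h2bb it overlaps another annotated gene on its strand and has no unique 50-base stretch.

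Of the H4 genes, nearly all of which encode the same protein, Hist4h4 had the most reads, at 1.93, 1.72 and 2.07 CPM in NKG2D+ and 2.72, 1.76 and 2.18 CPM in NKG2D- libraries. It was lower in the NKG2D+ library of each mouse by a small margin in mice 2 and 3, the groups overlapped, and the log2 fold change was -0.22 ± 0.23 (edgeR adjusted p = 0.643). Hist1h4d was level between the populations, at 0.471 ± 0.0976 and 0.478 ± 0.112 CPM. Hist1h4i had the lowest log2 fold change of all tested histone genes, -0.74 ± 0.80, with 1.11 CPM in library NKG2D- 1 and 0.112 to 0.441 CPM in the other five.

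Precision differed between the classes. The standard error of the log2 fold change was 0.17 to 0.80 over the 20 clustered genes, with a median of 0.46. In 19 of the 20 the 95% interval held 0, and in 6 it lay within 2-fold in both directions, as it did for all 7 replacement genes. For the other 14 clustered genes the interval reached past 2-fold in at least 1 direction.

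**Figure D3:**
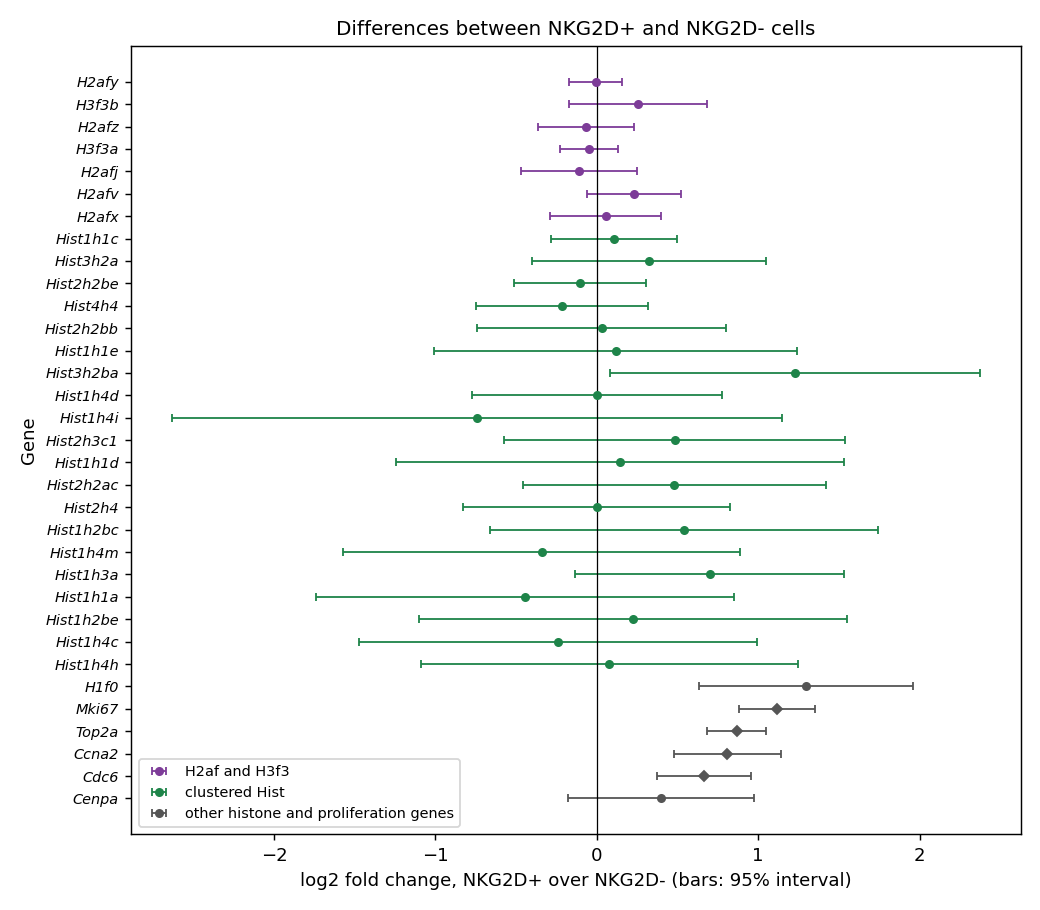
Log2 fold change (NKG2D+ over NKG2D-) with its 95% interval for the 27 tested histone genes and for 6 genes set beside them. Diamonds mark edgeR adjusted p under 0.05. Replacement genes (purple) lie close to 0 with narrow intervals, clustered genes (green) scatter around 0 with wide ones, and the 4 diamonds are proliferation genes.

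The other 38 detected histone genes, 36 clustered and 2 replacement, had 1 to 60 reads in all 6 libraries together and at most 21 in any library, and were too low to test. Reads of the clustered class were concentrated in few genes: the 5 with the most reads held 75.8% of them. The 17 clustered genes with a polyadenylation signal near an annotated end held 76.2% of the clustered reads, and the 25 with a 3′ UTR of at least 200 bases held 85.3%. Such a long 3′ UTR was annotated in 14 of the 20 tested clustered genes, in 8 of the 36 that were detected and not tested, and in 3 of the 12 at 0. Longer transcripts also yield more reads, and these shares were not corrected for length.

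Sequence shared with any other annotated gene, on either strand, moved with the same split. Genes that overlap at the same place count among these, and 30 of the 78 histone genes have one. The median share of 50-base stretches found in no other GENCODE M21 gene was 74.5% in the tested, 44.5% in the detected and untested, and 9.59% in the undetected clustered genes. Reads that aligned to several places were set aside in the deposited files, and made up 20.3% ± 0.624 (SD, n = 3) of counted reads in NKG2D+ and 24.0% ± 2.33 in NKG2D- libraries. A count of 0 for genes such as the Hist2h2aa copies, which have no such stretch of their own, is thus a count of uniquely placed reads. Hist2h2bb and Hist2h3c1 have no such stretch either, yet held 768 and 165 reads. The measure does not separate copies elsewhere from genes that overlap at the same place. How far tail selection, transcript length and shared sequence each account for the low clustered reads was not tested.

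**Figure D4:**
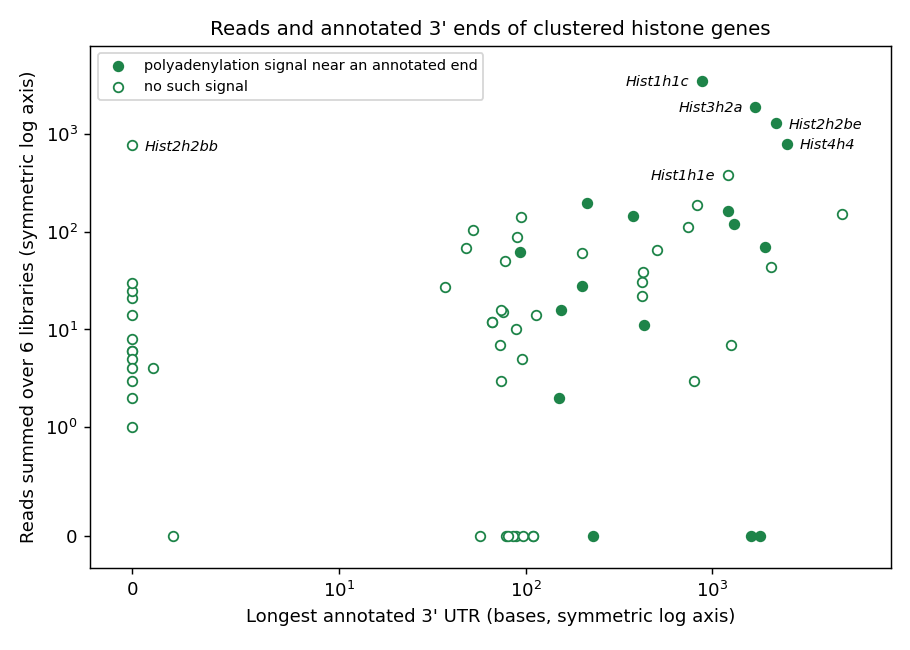
Reads summed over the 6 libraries against the longest annotated 3′ UTR for the 67 clustered genes with a coding transcript (both axes symmetric log), filled where a polyadenylation signal lies within 50 bases of an annotated end. The 4 filled genes at the upper right, Hist1h1c, Hist3h2a, Hist2h2be and Hist4h4, held 68.8% of the clustered reads, and 12 genes lie at 0 reads.

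Histone genes with other symbols were looked at beside these. H1f0 encodes a replacement linker histone that accumulates in resting and differentiated cells. It stood at 21.5, 16.6 and 17.4 CPM in NKG2D+ and at 5.11, 10.99 and 6.39 CPM in NKG2D- libraries, so all NKG2D+ libraries lay above all NKG2D- ones. The log2 fold change was 1.30 ± 0.28, and edgeR did not call it (adjusted p = 0.0727). DESeq2 did (adjusted p = 0.000106), and so did edgeR without library NKG2D+ 2 (adjusted p = 0.0483). Cenpa, the centromeric H3 variant loaded in dividing cells, was at 10.3 ± 3.17 against 7.82 ± 1.52 CPM (SD, n = 3; log2 fold change 0.40, edgeR adjusted p = 0.407). H1fx had 15, 11 and 13 reads against 0, 3 and 3 in the NKG2D- libraries and was not tested. The germ cell linker histones were at 0 reads (H1fnt) and 1 read (H1foo).

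Genes that make histone mRNA and carry histones to DNA were compared as lists. Of 11 genes for histone mRNA transcription and 3′ end processing 0 passed in edgeR, 2 had an unadjusted p under 0.05 (21.1% of all genes did), and the median log2 fold change was -0.05. Slbp, the stem-loop binding protein itself, had the smallest p: NKG2D+ cells had 79.8 ± 4.67 CPM and NKG2D- cells 65.3 ± 2.49 CPM (SD, n = 3), with no overlap between the groups (log2 fold change 0.29 ± 0.07, edgeR adjusted p = 0.0888). DESeq2 called Slbp (adjusted p = 0.0228), as did edgeR without library NKG2D+ 2 (adjusted p = 0.0420). Of 13 replication-coupled chaperone and acetylation genes 0 passed in edgeR or DESeq2 and 0 had an unadjusted edgeR p under 0.05 (21.1% of all genes did), with a median of 0.01. Without library NKG2D+ 1 edgeR called 1 of them, Chaf1a, a subunit of the assembly factor CAF-1. Mms22l, which acts at replication forks, had the smallest p there, at 24.4 against 20.98 CPM (log2 fold change 0.22, edgeR adjusted p = 0.276).

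Of 12 genes that deposit or evict replacement variants 0 passed in edgeR, 2 had an unadjusted p under 0.05 (against the same 21.1%), and the median was 0.01. Daxx, an H3.3 chaperone, had the smallest p, with 89.7 ± 3.14 CPM for the NKG2D+ and 110.5 ± 5.67 CPM for the NKG2D- libraries, again with no overlap (log2 fold change -0.30 ± 0.07, edgeR adjusted p = 0.0756). DESeq2 called Daxx lower (adjusted p = 0.00819). Atrx, the partner of Daxx, was at -0.04 on the log2 scale (edgeR adjusted p = 0.778), and Hira, Cabin1, Ubn1 and Ubn2, of the other H3.3 complex, lay between 0.01 and 0.04 with adjusted p-values of at least 0.792.

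Of 28 S phase and proliferation genes 4 rose in NKG2D+ cells and 0 fell, where 1.65% of all genes rose and 0.363% fell. An unadjusted p under 0.05 was found for 10 of the 28 (21.1% of all genes), 25 had a positive log2 fold change (47.2% of all genes), and the median was 0.25 against -0.01 for all genes. Mki67, the proliferation antigen Ki-67, averaged 85.7 ± 8.67 CPM with NKG2D and 39.5 ± 3.02 CPM without it (log2 fold change 1.12, edgeR adjusted p = 0.00890). Top2a, the topoisomerase that untangles replicated DNA, was at 63.5 ± 2.28 against 34.9 ± 2.49 CPM (0.87 on the log2 scale, edgeR adjusted p = 0.00890). Ccna2, cyclin A, and Cdc6, which licenses origins, rose by 0.81 and 0.66 on the log2 scale (edgeR adjusted p = 0.0430 and 0.0498). With the mouse as a block, Mki67 and Top2a passed, Ccna2 and Cdc6 did not (adjusted p = 0.0777 and 0.0918), and Rrm2, a ribonucleotide reductase subunit, did. Over all 5 lists the calls numbered 4, and 6, 9 and 0 without NKG2D+ 1, 2 or 3 and 1, 1 and 0 without NKG2D- 1, 2 or 3. The difference between the proliferation genes and the clustered histone genes was not tested.

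Markers of other cells were present in the sorted cells and were uneven between libraries. Those of B cells had the largest sum, above that of the clustered histone genes in every library. The 10 CD8 T cell markers, Klrk1 among them, summed to 4403 to 6536 CPM in NKG2D+ and 4254 to 4590 CPM in NKG2D- libraries. The 14 B cell markers summed to 490 to 739 against 180 to 385 CPM, without overlap, and 0 of them passed the test. Germinal centre B cell markers summed to 22.9 to 32.2 against 18.5 to 20.2 CPM, NK cell markers to 5.96 to 19.2 against 2.19 to 4.16 CPM, and gamma-delta and NKT cell markers to 10.5 to 18.3 against 1.94 to 8.40 CPM, also without overlap. Plasma cell markers (55.7 to 144 against 49.3 to 55.2 CPM) did not overlap in sum. Myeloid (23.9 to 30.1 against 18.8 to 24.7 CPM) and CD4 T cell markers (44.4 to 123 against 47.8 to 55.9 CPM) did overlap. Most of the plasma cell sum was Xbp1 (mean 54.8 against 33.9 CPM) and Irf4 (40.1 against 15.7 CPM). Irf4 did not overlap between the groups, and Xbp1, Sdc1, Igj and Tnfrsf17 each did. In the CD4 T cell list Foxp3 was lower in NKG2D+ cells without overlap (mean 4.88 against 17.1 CPM, edgeR adjusted p = 0.0687). Cd40lg and Zbtb7b were higher without overlap, neither passed the test, and Cd4 overlapped. Besides Klrk1, 1 marker in any of these lists rose, Klre1, an NK cell receptor (log2 fold change 3.28, edgeR adjusted p = 0.0498). Erythroid markers were at most 0.579 CPM in sum, with 3 of 6 at 0. Library NKG2D+ 1, which had the most clustered histone reads, also had the highest sums of all these lists but the NK and erythroid ones; their part in the histone values was not tested. In such bulk samples fewer cells of a kind and less RNA per cell cannot be told apart.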

How the data were processed

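RNA of 6 libraries (3 NKG2D+, 3 NKG2D-) was extracted on columns with DNase digestion, per the labels' protocols. The authors deposited read counts per gene symbol, not normalised. CASAVA 1.8.2, TopHat2 2.0.4 and mm9 appear in the submitters' processing notes. The sources used here do not name the program, annotation or strand setting behind the counts. Each table has 5 rows that name no gene: multiply aligned reads were 19.7% to 26.2% of counted reads, reads outside genes 14.0% to 15.9% and ambiguous reads 0.715% to 0.836%, and none of them entered library sizes or tests.

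CPM values use TMM-scaled library sizes. The test was edgeR 4.0.16 (R 4.3.3, quasi-likelihood, robust, legacy mode) after filterByExpr (minimum count 10, minimum total 15), with group as the only term. The test was checked on simulated data. DESeq2 1.42.0 and limma-voom (limma 3.58.1), other scalings, no filter, each library left out, both libraries numbered 3 left out and the mouse as a block were alternatives. P-values measure the spread between the 3 libraries within each group and leave out the pairing by mouse, except with the mouse as a block. With that block the lowest edgeR adjusted p of a histone gene was 0.143. Same-numbered libraries were taken as one mouse: the series description gives 3 mice, and deviations of log2 CPM from group means correlated across genes at r = 0.25, 0.20 and 0.38 in same-numbered pairs (-0.21 to 0.02 in the others; genes are not independent replicates). No 2 libraries of a group agreed within sampling noise.

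The histone genes and lists were chosen with earlier results of these data known, so no p-value is given for a list or a sum. Named genes were all H2af and H3f3 genes tested, called clustered genes, the 8 clustered genes with the most CPM, the 5 with the smallest p, from each list up to 4 called genes or the one with the smallest p, the histone genes with other symbols, and Klrk1. Hist1h4i, the other genes at the extremes of a range, Atrx, Hira, Cabin1, Ubn1, Ubn2, Chaf1a, Klre1 and Rrm2 were named after their values were seen. The single plasma cell and CD4 T cell markers were also named after their values were seen. Sequences come from GENCODE M21 and RefSeq on GRCm38, a later build than mm9, so no coordinates are given.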

Additional observations from a re-analysis of the deposited data

How the results depend on the processing

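No tested histone gene was called under any of the 13 alternatives. These tested 25 to 29 of the 78 genes chosen by symbol, or 65 with no filter and with DESeq2. For DESeq2 the 65 include any gene that its own filter on low counts left without an adjusted p. The 13 genes at 0 reads in every library could not be tested. With 1 library left out the log2 ratio of the summed reads ran from -0.03 to 0.21 for the clustered and from -0.01 to 0.11 for the replacement genes. The count over all genes, 261, was 1443 with DESeq2, 83 with limma-voom, between 8 and 1312 with 1 library left out and 0 without both libraries numbered 3. With the mouse as a replicate block it was 68. Among the supply and proliferation lists the 4 calls became 12 with DESeq2, 2 with limma-voom, 0 to 9 with 1 library left out, and 0 without both libraries numbered 3. Some histone genes changed sign, none of them called. Most of these had a log2 fold change near 0 in the main fit, but that of Hist3h2a was 0.32. With library totals in place of TMM, which moved the median of all genes from -0.01 to 0.07 on the log2 scale, the log2 fold change was 0.075 for H2afy, 0.0090 for H2afz, 0.035 for H3f3a and 0.080 for Hist1h4d. Hist1h4d was 0.0027 with relative log expression scaling, 0.0012 with DESeq2, 0.014 with limma-voom and 0.0058 with the replicate block; beyond the calls of Ccna2, Cdc6 and Rrm2 the block changed no call of a named gene. H3f3a was 0.0044 without both libraries numbered 3. With 1 library left out the log2 fold change ran from -0.040 to 0.17 for H2afx, from -0.044 to 0.031 for H2afy, from -0.22 to 0.039 for H2afz, from -0.11 to 0.012 for H3f3a, from -0.058 to 0.53 for Hist3h2a, from -0.19 to 0.25 for Hist2h2bb, from -0.23 to 0.65 for Hist1h1e and from -0.14 to 0.18 for Hist1h4d. The cause of these changes was not tested. Of the 56 clustered genes detected, 36 had too few reads to test at this depth.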
